A study of Mus musculus with 42 samples.

Results

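*Pbx3*, *Fst*, *Eml2*, *Pygl*, *Large2*, *Erbb3*, *Igfbp5*, *Phf3*, *Rragd* and *Zfp462* are 10 of the 27179 genes of a count table from mouse spermatogonia with and without the chromatin remodeler CHD8. These genes were chosen by the evidence in the same counts that deletion of *Chd8* changed them differently in c-Kit+ and in Thy1+ cells. Their response in either population, and the difference between both responses, are therefore given as a description and without a test. All 10 were among the 18002 genes that passed the filter on low counts. Ranked by the p-value of the difference over all 18002 genes, they held the places 1, 2, 4, 5, 6, 7, 9, 10, 12 and 13, and *Etv5*, *Zfp366* and *Parp14* took the places between. *Zfp462*, the last of the 10, had a difference of 1.36 (SE 0.26) on the log2 scale, and *Tubg2*, the next gene at place 14, had 1.71 (SE 0.33).

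The mice were male, of strain C57BL/6J and 10 days post-partum (dpp), and all of them carried Ddx4-Cre, a Cre recombinase driven by a promoter active in germ cells. Controls had the genotype Ddx4-Cre/Chd8+/F, with an intact and a floxed *Chd8* allele, and conditional knockouts (CKO) had Ddx4-Cre/Chd8F/-, with a floxed and a deleted allele, so that controls too had Cre and could lose an allele. Cells were taken with magnetic beads, first those with c-Kit on the surface and then, from the cells that had flowed through, those with Thy1. Each of the 4 groups (Thy1+ control, Thy1+ CKO, c-Kit+ control, c-Kit+ CKO) has 3 mRNA libraries, and the study does not say whether a library pools pups.

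Spermatogenesis starts from undifferentiated spermatogonia, among them the stem cells, which Thy1 beads enrich. Under retinoic acid these cells become differentiating spermatogonia, which carry the receptor c-Kit and go on to meiosis. CHD8 is an ATP-dependent remodeler of the chromodomain helicase family that acts at promoters. The 10 genes come from unrelated pathways: *Fst* and *Igfbp5* encode secreted proteins that bind growth factors, *Erbb3* a receptor, *Pygl* and *Large2* enzymes of sugar chains, *Rragd* a GTPase that reports nutrients, *Eml2* a protein of microtubules, and *Pbx3*, *Phf3* and *Zfp462* proteins that act on chromatin or transcription.

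Total counts ran from 32266861 to 45396233 per library, and both reads of a pair were counted. The targeted gene, *Chd8*, was at 259 to 278 CPM (counts relative to the TMM-scaled library total) in Thy1+ control, 258 to 298 in Thy1+ CKO, 263 to 305 in c-Kit+ control and 297 to 316 in c-Kit+ CKO, so control and CKO libraries overlapped within each population. A count over the whole gene holds all exons and cannot show the loss of the floxed ones. The sorting antigens followed the labels: *Thy1* was at 11.7 to 17.1 CPM in the Thy1+ libraries and at 0.436 to 1.07 in the c-Kit+ libraries, and *Kit* was at 171 to 432 CPM in the former and at 626 to 782 in the latter.

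In c-Kit+ cells, 8 of the 10 genes were higher in every CKO library than in every control library (*Fst*, *Eml2*, *Pygl*, *Large2*, *Igfbp5*, *Phf3*, *Rragd* and *Zfp462*), *Pbx3* was lower in every one, and the libraries of *Erbb3* overlapped. In Thy1+ cells none was higher in every CKO library, and *Pbx3*, *Fst*, *Large2*, *Erbb3* and *Igfbp5* were lower in every one. The response had opposite signs in the populations for 8 genes, all but *Pbx3*, which was lower in both, and *Eml2*, which was at 0.02 (SE 0.12) in Thy1+. *Fst*, *Large2* and *Igfbp5* had no overlap in either population and opposite directions. Over all 18002 genes, 30.7% had every c-Kit+ CKO library above the controls, 10.7% had every Thy1+ CKO library below them, 22.7% had responses of opposite sign, and 0.333% had no overlap and opposite directions; since the 10 genes were chosen on this contrast, nothing is read from their higher shares.

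**Figure D1:**
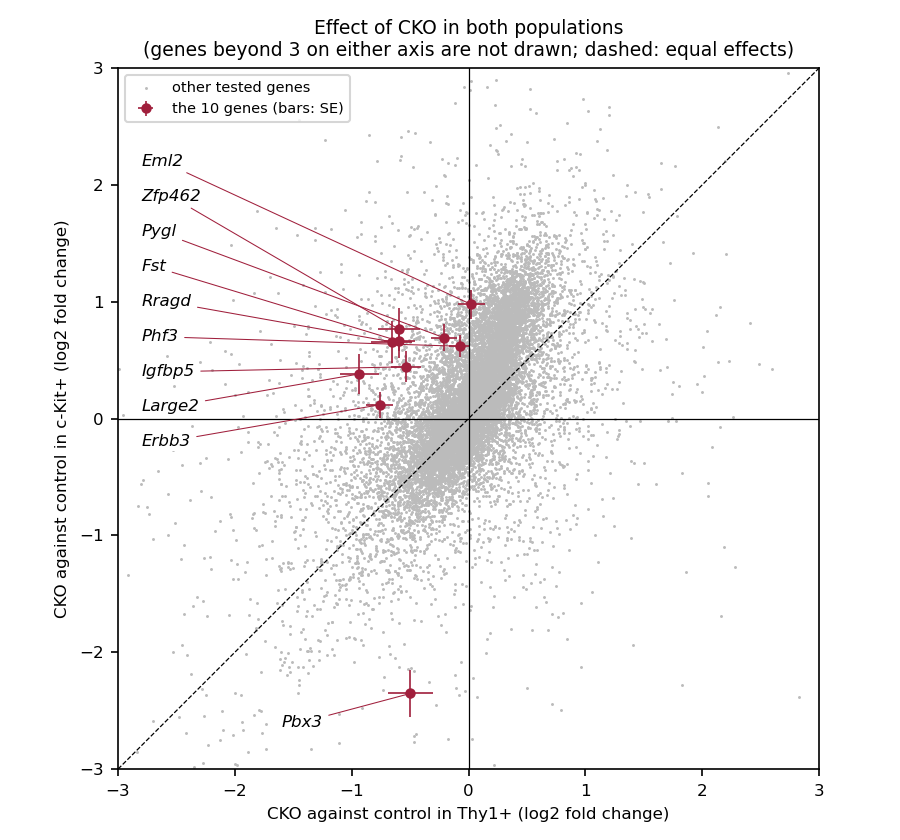
Log2 fold change of CKO against control in Thy1+ cells (horizontal) and c-Kit+ cells (vertical) for the tested genes (grey) and the 10 genes (red, bars are SE), from the fit of 12 libraries. *Pbx3* lies at -0.50 and -2.35, below the dashed line of equal effects, and the other 9 genes lie above it.

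Across all genes, the edgeR quasi-likelihood test of the difference between both responses called 0 of 18002 genes (0%) at an adjusted p (FDR) under 0.05, with a lowest FDR of 0.235. At an unadjusted p under 0.05 there were 1804 genes (10.0%), and DESeq2 called 59. With the replicate number as a block, edgeR called 446 genes, and 54 with the block within genotype. After subtraction of group means, same-numbered libraries correlated above 0 in all 18 pairs (0.00486 to 0.448), and over 0.1 in 10 of them. The study does not state that the numbers pair libraries, so the number of calls depends on a choice that is not settled here. The rank of the 10 genes is thus an order of evidence within the edgeR fit without a block, which made no call, whereas other fits of the same counts did. Their spread between libraries was small: the median biological coefficient of variation was 12.6% over the 10 genes and 15.5% over all tested genes, and the choice by p-value favours genes of small spread.

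The promoter table used here, from RefSeq (GRCm38.p6), holds 4 of the 10 genes, and these are printed to show what the windows upstream of 4 genes with a higher level in every c-Kit+ CKO library hold. The 250 bases before the start site are given 5′ to 3′ on the strand of the gene, with capitals on each match to a GC box (GGGCGG or its reverse complement), in the order *Pygl* (chr12:70227684-70227933, minus strand), *Eml2* (chr7:19180920-19181169, plus strand), *Igfbp5* (chr1:72874866-72875115, minus strand) and *Rragd* (chr4:32982748-32982997, plus strand).
*Pygl*: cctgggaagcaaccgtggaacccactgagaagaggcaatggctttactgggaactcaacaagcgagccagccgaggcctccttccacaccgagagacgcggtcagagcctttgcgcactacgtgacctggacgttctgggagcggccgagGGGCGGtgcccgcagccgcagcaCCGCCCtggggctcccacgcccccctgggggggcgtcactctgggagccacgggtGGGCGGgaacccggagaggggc
*Eml2*: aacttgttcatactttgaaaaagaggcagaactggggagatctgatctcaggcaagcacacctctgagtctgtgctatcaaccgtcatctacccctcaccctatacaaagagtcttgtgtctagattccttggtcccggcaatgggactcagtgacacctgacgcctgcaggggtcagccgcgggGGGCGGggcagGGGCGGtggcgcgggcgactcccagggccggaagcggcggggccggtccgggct
*Igfbp5*: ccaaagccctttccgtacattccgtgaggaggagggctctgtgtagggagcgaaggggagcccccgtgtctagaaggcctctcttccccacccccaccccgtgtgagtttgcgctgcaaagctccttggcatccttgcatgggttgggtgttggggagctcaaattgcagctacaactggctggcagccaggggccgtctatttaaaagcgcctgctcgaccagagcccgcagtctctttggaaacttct
*Rragd*: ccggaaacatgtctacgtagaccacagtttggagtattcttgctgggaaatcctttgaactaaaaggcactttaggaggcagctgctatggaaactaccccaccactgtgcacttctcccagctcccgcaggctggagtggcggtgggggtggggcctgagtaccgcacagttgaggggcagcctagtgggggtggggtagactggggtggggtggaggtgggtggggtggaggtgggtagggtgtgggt
Each of these windows ends at the edge of the counted gene. *Pygl* had 3 GC boxes and 20 CpG dinucleotides and *Eml2* had 2 GC boxes and 15 CpGs, whereas *Igfbp5* (10 CpGs) and *Rragd* (5 CpGs) had no match. The median over 32851 promoter windows was 6 CpGs, and 32.7% of these windows held a GC box. Searched on both strands, the 4 windows held no TATA box (TATAAA, found in 12.4% of all windows), no CCAAT box (33.8% of all windows) and no E box of the form CACGTG (6.02% of all windows). They also held no match to the motif of the meiotic regulator STRA8, spelled CNCCTCAG and found in 6.42% of all windows. A second, upstream start of *Eml2* (chr7:19176171-19176420) lies outside the counted gene and held 2 CCAAT boxes and 1 match to CNCCTCAG. *Pbx3*, *Fst*, *Large2*, *Erbb3*, *Phf3* and *Zfp462* were not in the promoter table.

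Values by library follow in CPM, in the order of the replicate numbers 1, 2 and 3, which carry no rank. *Fst* (chr13:114452262-114458730, minus strand) encodes follistatin, which binds activins and keeps them from their receptors. Its level was 26.9, 23.9 and 19.2 CPM in Thy1+ control and 15.0, 16.8 and 14.5 CPM in Thy1+ CKO. In c-Kit+ it was 3.29, 3.83 and 3.43 CPM in control and 5.58, 5.67 and 5.44 CPM in CKO. Every CKO library was thus below the controls in Thy1+ and above them in c-Kit+, and all c-Kit+ libraries were below all Thy1+ libraries. The response, as a log2 fold change, was -0.59 (SE 0.14) in Thy1+ and 0.66 (SE 0.15) in c-Kit+, a difference of 1.25 (SE 0.20).

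*Igfbp5*, an insulin-like growth factor binding protein (chr1:72858065-72874865, minus strand), had the same order of groups. Thy1+ control libraries held 58.9, 60.8 and 49.5 CPM and Thy1+ CKO libraries 39.8, 36.4 and 40.5 CPM. The c-Kit+ libraries held 9.38, 7.27 and 6.88 CPM in control and 9.80, 11.2 and 10.97 CPM in CKO. The gap between the last control and the first CKO library in c-Kit+ was narrow, from 9.38 to 9.80 CPM. Its response was -0.54 (SE 0.12) in Thy1+ and 0.44 (SE 0.13) in c-Kit+, and the difference was 0.98 (SE 0.18).

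*Erbb3* encodes a receptor for neuregulins that signals together with ERBB2 (chr10:128569368-128589501, minus strand). It differed from the other 9 genes in that its libraries separated by genotype in Thy1+ only. The level was 24.9, 24.1 and 21.7 CPM in Thy1+ control and 15.3, 13.6 and 12.8 CPM in Thy1+ CKO. In c-Kit+ control it was 15.8, 18.2 and 18.2 CPM and in c-Kit+ CKO 17.5, 19.3 and 19.7 CPM. The c-Kit+ libraries of both genotypes overlapped and lay between both Thy1+ groups. Its response was -0.76 (log2, SE 0.11) in Thy1+ and 0.12 (SE 0.11) in c-Kit+, where leaving out c-Kit+ CKO replicate 3 gave 0.02. The difference was 0.88 (SE 0.16).

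*Pygl* encodes the liver form of glycogen phosphorylase, the enzyme that releases glucose units from glycogen (chr12:70190815-70227683, minus strand). Its Thy1+ libraries overlapped, with 92.8, 78.7 and 83.8 CPM in control and 69.8, 66.3 and 84.2 CPM in CKO. In c-Kit+ the level was 17.2, 16.4 and 16.3 CPM in control and 30.3, 24.4 and 26.1 CPM in CKO. The c-Kit+ CKO mean was 1.62-fold that of control, and all 3 CKO libraries were still below the lowest Thy1+ library. On the log2 scale the response was -0.21 (SE 0.11) in Thy1+, and -0.32 without Thy1+ CKO replicate 3, and it was 0.69 (SE 0.11) in c-Kit+, with a difference of 0.91 (SE 0.16).

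*Large2* encodes a glycosyltransferase that extends the sugar chain by which dystroglycan binds laminin (chr2:92365046-92371036, minus strand). In Thy1+ it had the most negative response of the 10 genes, with 86.5, 62.3 and 51.1 CPM in control and 34.0, 36.7 and 33.8 CPM in CKO. In c-Kit+ it was at 10.7, 9.78 and 9.12 CPM in control and at 11.1, 12.7 and 14.7 CPM in CKO, with no overlap. This gave a log2 fold change of -0.94 (SE 0.17) in Thy1+, and of -0.70 without Thy1+ control replicate 1, the highest library. In c-Kit+ it was 0.38 (SE 0.17), and 0.21 without c-Kit+ CKO replicate 3. The difference was 1.32 (SE 0.24).

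*Rragd* encodes RagD, a GTPase through which amino acids bring the kinase complex mTORC1 to lysosomes (chr4:32982998-33022180, plus strand). Its c-Kit+ control libraries, at 20.6, 18.7 and 21.0 CPM, were below all others. The c-Kit+ CKO libraries held 31.0, 31.1 and 32.9 CPM, overlapping with Thy1+ CKO (42.3, 36.7 and 32.3 CPM). Thy1+ control ranged widely, with 76.0, 58.7 and 41.0 CPM, and overlapped with Thy1+ CKO. The log2 fold change in Thy1+ was -0.66 (SE 0.18) and -0.43 without Thy1+ control replicate 1. With 0.66 (SE 0.18) in c-Kit+, the difference was 1.32 (SE 0.25).

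*Eml2* belongs to a family of microtubule-associated proteins (chr7:19181170-19206482, plus strand). Its Thy1+ libraries held 30.7, 25.5 and 30.2 CPM in control and 28.8, 25.6 and 33.4 CPM in CKO and were interleaved. In c-Kit+ it held 10.3, 11.4 and 11.7 CPM in control and 22.1, 21.2 and 22.4 CPM in CKO, a 1.97-fold higher level. The c-Kit+ CKO libraries came close to the lowest Thy1+ library without reaching it. The log2 fold change of 0.98 (SE 0.12) in c-Kit+ made up all of the difference of 0.95 (SE 0.17).

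*Pbx3*, a TALE homeodomain protein that binds DNA with HOX and MEIS partners (chr2:34171909-34372036, minus strand), was the exception in direction. In c-Kit+ control it stood at 29.6, 51.0 and 39.8 CPM, above all other libraries, and in c-Kit+ CKO at 8.35, 7.96 and 7.27 CPM, below all others. In Thy1+ it was at 20.4, 28.5 and 24.8 CPM in control and at 18.3, 14.2 and 19.7 CPM in CKO. Neither population had an overlap, but in Thy1+ the nearest libraries were at 20.4 and 19.7 CPM. Its response was a log2 fold change of -2.35 (SE 0.20) in c-Kit+, a 5.11-fold lower level, and -0.50 (SE 0.19) in Thy1+. The difference was -1.86 (SE 0.27), the largest of the 10 in size.

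*Phf3* encodes a protein that binds the tail of RNA polymerase II through its SPOC domain (chr1:30802342-30863256, minus strand). Its Thy1+ libraries did not separate by genotype, with 135, 106 and 113 CPM in control and 117, 106 and 113 CPM in CKO. In c-Kit+ they did, with 57.9, 54.5 and 57.6 CPM in control and 88.6, 81.8 and 90.7 CPM in CKO. Its log2 response in Thy1+, -0.08 (SE 0.09), turned to 0.03 without Thy1+ control replicate 1, so that its sign is not settled. In c-Kit+ it was 0.62 (SE 0.09). The difference, 0.69 (SE 0.13), was the smallest of the 10 in size, and *Phf3* also had the smallest coefficient of variation of them, 9.54%.

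*Zfp462* encodes a large zinc finger protein that binds heterochromatin proteins (chr4:54947945-55083563, plus strand). Like *Rragd* it varied most in Thy1+ control, with 213, 148 and 122 CPM against 125, 102 and 92.9 CPM in Thy1+ CKO. Its c-Kit+ libraries held 57.5, 44.97 and 42.7 CPM in control and 78.1, 87.9 and 80.5 CPM in CKO, and these groups did not overlap. The log2 fold change was -0.59 (SE 0.18) in Thy1+, and -0.34 without Thy1+ control replicate 1. It was 0.76 (SE 0.18) in c-Kit+, with a difference of 1.36 (SE 0.26).

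**Figure D2:**
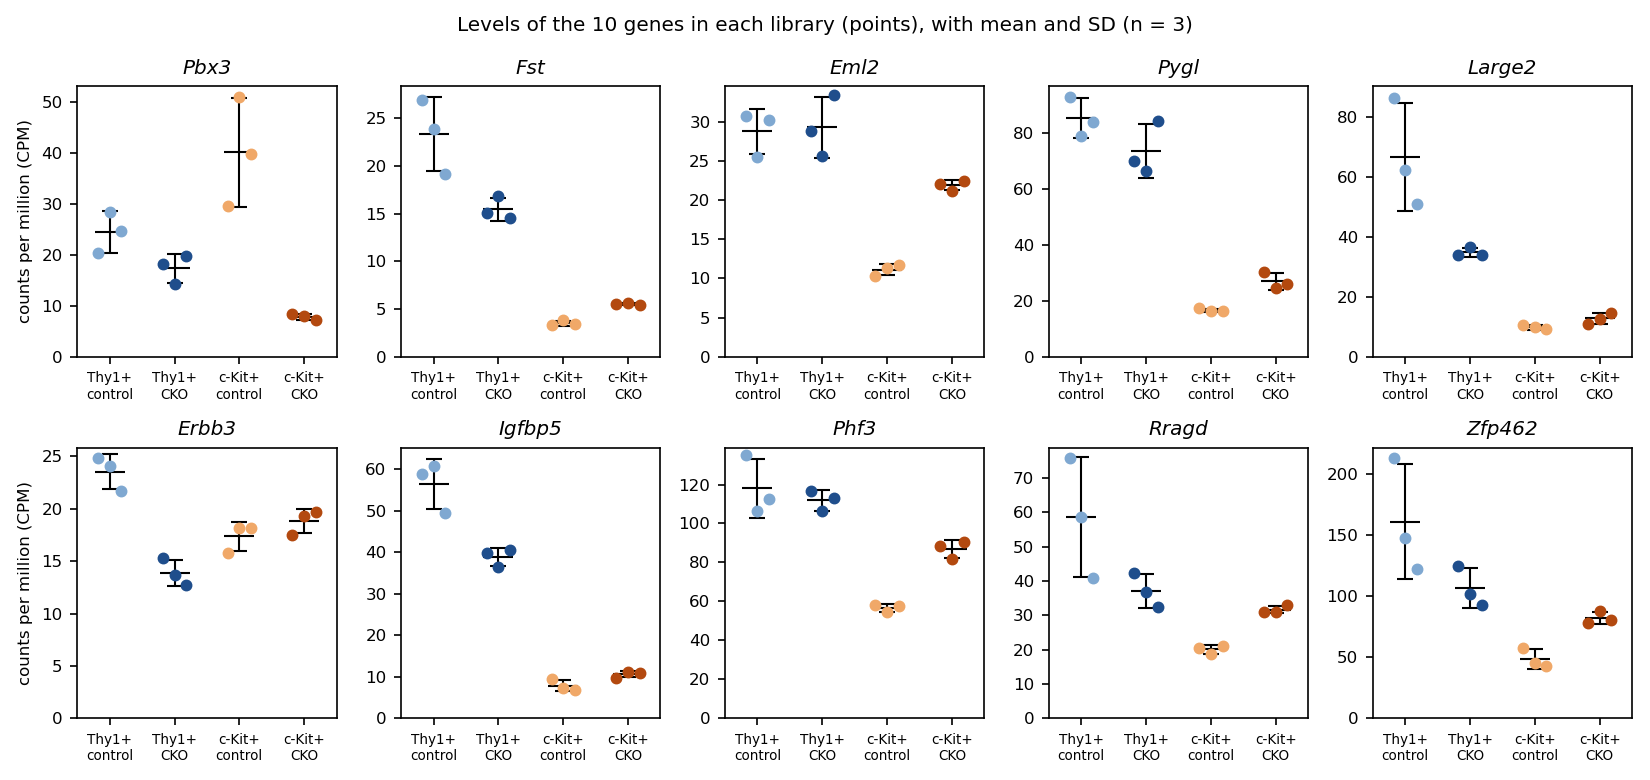
CPM of each gene in the 12 libraries (points, 3 per group), with the mean and SD of each group; every vertical axis starts at 0 and has its own scale. For *Fst*, *Large2* and *Igfbp5* the 4 groups form 4 separate steps, and *Pbx3* is highest in c-Kit+ control and lowest in c-Kit+ CKO.

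For comparison between genes, levels were also divided by exon length (RPKM). In Thy1+ control the highest means were those of *Pygl*, 30.2 ± 2.52 RPKM (SD, n = 3), and *Large2*, 27.5 ± 7.45, which did not differ beyond their spread. *Phf3* (15.6 ± 1.99), *Zfp462* (15.3 ± 4.47), *Eml2* (12.4 ± 1.24), *Rragd* (11.6 ± 3.47), *Pbx3* (10.3 ± 1.69), *Fst* (9.97 ± 1.66) and *Igfbp5* (9.64 ± 1.03) followed, each within the spread of the next. *Erbb3* was lowest, at 5.86 ± 0.41 RPKM, apart from the others. In c-Kit+ control the order was another: *Pbx3* led with 16.8 ± 4.47 RPKM, *Phf3* had 7.49 ± 0.25, and *Fst* (1.51 ± 0.12) and *Igfbp5* (1.34 ± 0.23) were lowest.

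The average over both genotypes asks which population holds more of a transcript. It is independent of the contrast that chose the genes only where both genotypes vary alike, apart from the shared estimate of spread. In c-Kit+ they did not. The chi-square per degree of freedom was 16.1 to 25.9 between control replicates and 10.3 to 12.3 between CKO replicates. The averages of the 10 genes, and their calls, are therefore a description. In this comparison 8 of the 10 genes were called higher in Thy1+ than in c-Kit+ (FDR under 0.05, log2 fold change over 0.5), none was called lower, and *Pbx3* and *Erbb3* were not called. Over all tested genes 19.6% were called higher in Thy1+ and 9.49% lower. The median log2 difference was 0.98 over the 10 genes and -0.04 over all tested genes. Because the choice by p-value favours a small spread, these shares are a description of the genes.

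*Igfbp5* had the largest average, 2.36 (SE 0.09), followed by *Fst*, 4.29-fold higher in Thy1+ (SE 0.10 on the log2 scale), and *Large2*, 4.28-fold higher (SE 0.12). *Pygl* was 3.73-fold higher in Thy1+ (log2 1.90, SE 0.08). These 4 genes, 2 secreted proteins and 2 enzymes, are those in which every Thy1+ library exceeded every c-Kit+ library by the widest margin. The averages of *Zfp462* (1.05, SE 0.13), *Eml2* (0.90, SE 0.08), *Rragd* (0.89, SE 0.13) and *Phf3* (0.71, SE 0.07) were lower. *Pbx3* had an average of 0.22 (SE 0.14) and *Erbb3* of 0.00 (SE 0.09), since both changed their order between the genotypes.

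Split by genotype, the Thy1+ minus c-Kit+ value was lower in CKO than in control for all genes but *Pbx3*, which restates the difference that chose them. In control it ranged from 0.44 (SE 0.11) for *Erbb3* to 2.85 (SE 0.14) for *Igfbp5*, with *Pbx3* at -0.71 (SE 0.19). In CKO it was only 0.23 (SE 0.18) for *Rragd*, 0.36 (SE 0.09) for *Phf3* and 0.38 (SE 0.18) for *Zfp462*, while *Igfbp5* was at 1.87 (SE 0.13). *Erbb3* turned from 0.44 to -0.44, a gap of equal size in the other direction, and *Pbx3* from -0.71 to 1.15 (SE 0.20).

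**Figure D3:**
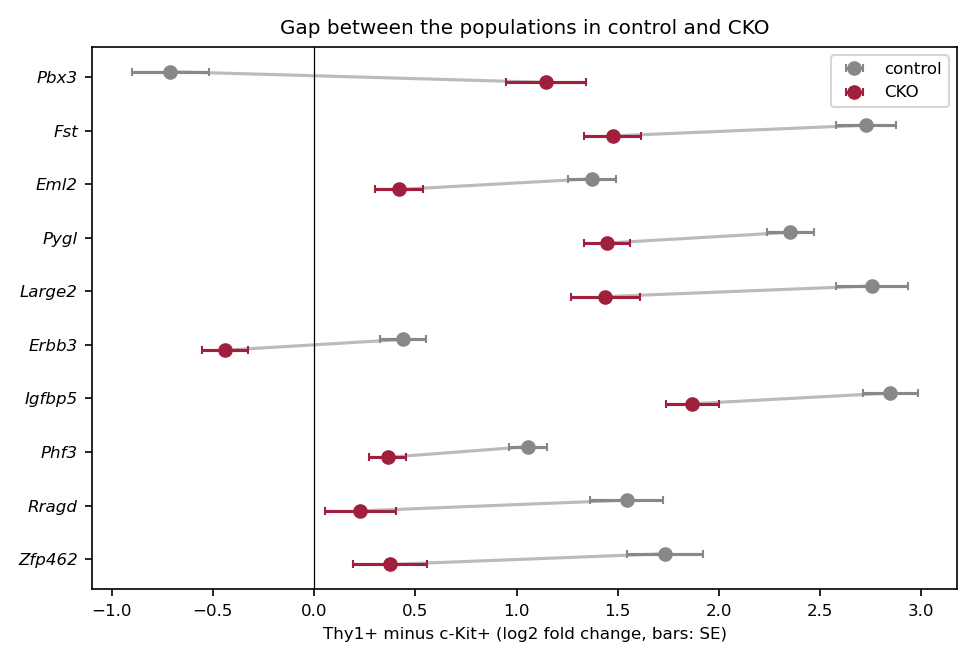
Thy1+ minus c-Kit+ (log2 fold change, horizontal) for each gene in control (grey) and CKO (red), with bars of 1 SE. The red point lies left of the grey point for 9 genes, crossing 0 for *Erbb3*, and right of it for *Pbx3*.

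The average of CKO against control over both populations is independent of the choice only where both populations vary alike. Replicates differed more in Thy1+ (a chi-square of 29.4 to 72.4 per degree of freedom) than in c-Kit+ (10.3 to 25.9), so these averages are given as a description and without a test. The largest in size was that of *Pbx3*, a log2 fold change of -1.42 (SE 0.14) in CKO. Over all tested genes, 5.69% were called lower in this average and 10.1% higher, and no share of the 10 genes is read against these. *Eml2* had an average of 0.50 (SE 0.08), *Erbb3* of -0.32 (SE 0.08), *Phf3* of 0.27 (SE 0.07) and *Pygl* of 0.24 (SE 0.08). *Large2* was at -0.28 (SE 0.12), and at -0.16 without Thy1+ control replicate 1. The averages of *Fst* (0.04), *Igfbp5* (-0.05), *Rragd* (0.00) and *Zfp462* (0.08) were below their SE of 0.09 to 0.13.

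The profile of each gene was compared with all 13676 genes of a mean log2 CPM of at least 1, by the root mean square (RMS) difference of log2 CPM about the mean over 12 libraries, and the 2 nearest genes were named. *Fst* was nearest to *Large2* (RMS difference 0.205) and *Igfbp5* (0.228), and *Igfbp5* in turn to *Fst* and *Large2* (0.248). *Rragd* and *Zfp462* were 0.153 apart and each other's second neighbour, after *Ppfibp2* (0.149) and *Parp10* (0.149), respectively. *Large2* had *Fst* as its second neighbour. All of these members were chosen in the same libraries for a difference of the same sign. That choice favours like profiles, so nothing is read from their closeness. For scale, *Fst* itself varied by an RMS of 1.09 about its mean.

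The remaining neighbours were not members. *Large2* had *Chrna4* as its first (0.180), and *Pygl* was nearest to *Rapgef3* (0.171) and *Adam19* (0.172), *Eml2* to *Irak4* (0.113) and *Arl10* (0.119), *Phf3* to *Gpx1* (0.0987) and *Ahdc1* (0.0989), and *Erbb3* had *Neb* as its second (0.153). *Pbx3* had the most distant neighbours, *Pparg* at 0.318 and *Asb1* at 0.336, against its own RMS of 0.871. All of these distances rest on the same 12 libraries and are a description.

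Each of the 10 genes was also set beside its pathway or family, 142 further genes in 10 lists, of which 138 were tested. No gene of these lists was called in the difference between both responses, and 21 of the 138 had an unadjusted p under 0.05, against 10.0% of all tested genes. In c-Kit+ cells, 33 of the 138 were called higher in CKO and 4 lower (edgeR, by the same thresholds in either direction), against 13.2% higher and 5.02% lower of all tested genes. In Thy1+ cells, 0 were called higher and 1 lower, against 0.0778% and 1.31% (14 and 236 of 18002). Thy1+ CKO and control libraries of the same replicate number varied together, and with the replicate number as a block the calls were 244 and 707 over all genes and 2 and 3 over the lists. Genes below that are named for being called were named after their values were seen. A bulk library cannot tell a lower level per cell from fewer cells that express a gene.

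Among the insulin-like growth factor genes, the list of *Igfbp5*, 9 of 15 tested were called higher in c-Kit+ CKO and none lower. The ligands *Igf1* (0.86, SE 0.21) and *Igf2* (0.64, SE 0.16), the insulin receptor *Insr* (1.10, SE 0.20), its substrate *Irs1* (0.89, SE 0.20) and the binding proteins *Igfbp4* (0.77, SE 0.18), *Igfbp6* (0.71, SE 0.17) and *Igfbp7* (0.99, SE 0.22) were among them. The median over the list was 0.77 in c-Kit+ and 0.26 in Thy1+, against 0.07 and 0.02 over all tested genes. Stromal and endothelial markers had c-Kit+ medians of 0.83 and 1.20 in the same libraries, and their part in the levels of these genes was not tested. *Igf1r*, the receptor of IGF1, had the lowest p of the list in the difference (0.32, SE 0.10, FDR 0.387), with -0.27 (SE 0.07) in Thy1+ and 0.05 (SE 0.07) in c-Kit+. *Igfbp5* was thus not alone in a higher level in c-Kit+ CKO, and no gene of the list was called in Thy1+. With the block, *Stc2*, an inhibitor of the protease that cuts IGF binding proteins, was called higher there (0.57, FDR 0.011).

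For *Fst*, the list holds activin subunits, receptors and mediators, and 5 of 14 tested were called higher in c-Kit+ CKO. These were the follistatin relative *Fstl3* (1.23, SE 0.37), the activin subunit *Inhba* (1.03, SE 0.24), the co-receptor *Tgfbr3* (0.97, SE 0.17), the pseudoreceptor *Bambi* (0.53, SE 0.15) and the inhibitory mediator *Smad7* (0.74, SE 0.16). *Smad7* also had the lowest p of the list in the difference (0.60, SE 0.22, FDR 0.430). None was called in Thy1+. *Inha*, the most abundant transcript per length of the list, had 1.30 (SE 0.53, FDR 0.090) in c-Kit+ and 0.65 (SE 0.52, FDR 0.511) in Thy1+.

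Of the ERBB ligands, receptors and adaptors listed with *Erbb3*, 4 of 15 tested were called higher in c-Kit+ CKO and 1 lower. The receptors *Egfr* (1.06, SE 0.19) and *Erbb4* (1.42, SE 0.47) and the ligands *Btc* (1.77, SE 0.52) and *Tgfa* (1.00, SE 0.27) rose, and the ligand *Nrg4* fell (-0.87, SE 0.25). In Thy1+ none was called, and with the block *Nrg4* was called lower (-0.90, FDR 0.035). *Egfr* had 0.44 (SE 0.19, FDR 0.238) in Thy1+, on the other side of 0 from *Erbb3*.

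The enzymes of glycogen metabolism around *Pygl* stayed mostly uncalled: 3 of 20 rose in c-Kit+ CKO, the muscle phosphorylase *Pygm* (0.83, SE 0.20), the primer protein Gyg (1.07, SE 0.17) and *Pgm2* (1.08, SE 0.28). The brain phosphorylase *Pygb* had the lowest p in the difference (0.55, SE 0.17, FDR 0.387), with 0.47 (SE 0.12, FDR 0.014) in c-Kit+, under the minimum on the fold change. Of the genes that build the sugar chain of dystroglycan, listed with *Large2*, 5 of 13 rose in c-Kit+ CKO, among them *Pomgnt2* (0.87, SE 0.23), *Pomk* (0.67, SE 0.17) and *B4gat1* (0.69, SE 0.18). *Dag1*, dystroglycan itself, was at 0.44 (SE 0.09, FDR 0.0055), again under the minimum. With the block, Gyg was called higher in Thy1+ (0.57, FDR 0.010), and no gene of the dystroglycan list was called there.

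Of 11 other genes listed with the TALE homeobox gene *Pbx3*, 5 rose in c-Kit+ CKO, where *Pbx3* was lower. Among these 5 were *Meis1* (1.12, SE 0.16), *Meis2* (1.15, SE 0.21), *Pknox2* (0.97, SE 0.16) and *Tgif1* (1.19, SE 0.38). The other 6 were not called, and the median of the 11 was 0.21. Among those 6 is *Pbxip1* (0.21, SE 0.09), which encodes a PBX-interacting protein and is not a homeobox gene. *Meis2* had the lowest p in the difference (0.94, SE 0.28, FDR 0.387), in the direction opposite to that of *Pbx3*. *Pbx2*, the most abundant of the family per length, was at -0.02 (SE 0.10) in c-Kit+ and -0.10 (SE 0.10) in Thy1+.

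In the lists of *Rragd*, *Eml2*, *Phf3* and *Zfp462* few genes were called. Among 28 genes of the Rag GTPases and mTORC1, *Fnip1*, a partner of folliculin, fell in c-Kit+ CKO (-1.13, SE 0.15) and the stress-induced *Sesn1* rose (0.51, SE 0.13), though the call of *Sesn1* was lost, and a second gene was called lower, with either other scaling of the libraries. In the EML family, *Eml1* rose in c-Kit+ CKO (0.61, SE 0.17), and *Eml5* fell there (-1.38, SE 0.20) and in Thy1+ CKO (-1.13, SE 0.20). Of the SPOC and TFIIS genes none was called, and with the block *Spocd1* was called lower in Thy1+ (-0.80, FDR 0.031). Among the HP1 and G9a partners, the H3K9 methyltransferase *Setdb1* fell in c-Kit+ CKO (-0.65, SE 0.12), and *Trim28*, the most abundant, was at -0.04 (SE 0.07).

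**Figure D4:**
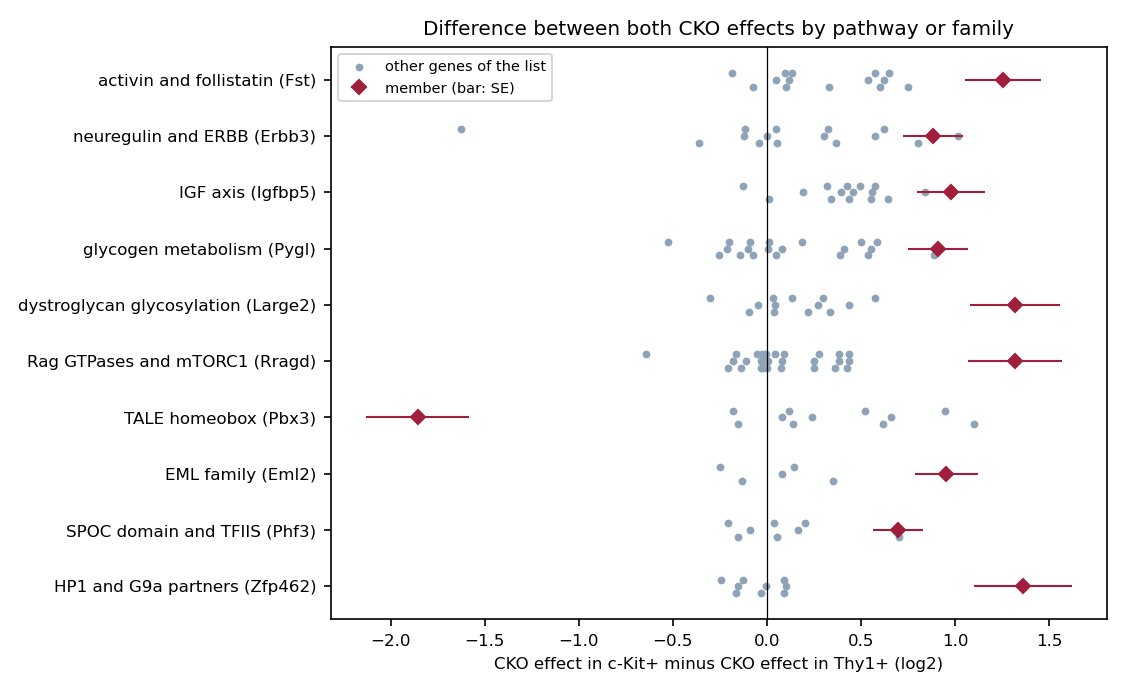
Difference between both responses (c-Kit+ minus Thy1+, log2, horizontal) for each pathway or family list; grey points are the 138 other tested genes and red diamonds the 10 genes with 1 SE. *Pbx3* lies left of 0 and left of all other genes of its list. Right of 0 lie 14 of 15 genes of the IGF list, against 91 of 138 over all lists. The median over all tested genes was 0.08.

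Markers of cell types were compared as 12 lists. Over all tested genes, 13.2% were called higher and 5.02% lower in c-Kit+ CKO. In c-Kit+ CKO, 6 of 7 stromal and 7 of 7 endothelial markers were called higher, with 3 of 6 Leydig, 3 of 6 peritubular myoid, 1 of 7 macrophage and 2 of 5 tested mast cell markers. The summed stromal level was 1801 to 2252 CPM in c-Kit+ control and 3263 to 4333 CPM in c-Kit+ CKO, and the endothelial one 54.6 to 80.2 and 118 to 187 CPM. Sertoli markers summed to 499 to 1339 CPM in c-Kit+ control and 2104 to 2337 CPM in CKO, with 0 of 8 called. Thus the c-Kit+ CKO libraries, in which 8 of the 10 genes were above control, also held more of these transcripts, and their part in the levels of the 10 genes and of the pathway lists was not tested.

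In Thy1+ libraries the stromal sum was far higher, 11090 to 14452 CPM in control and 12400 to 19085 CPM in CKO, and all 7 stromal markers were called higher in Thy1+ than in c-Kit+ on average, as were 7 of 7 macrophage, 5 of 6 peritubular myoid and 3 of 7 endothelial markers (2 when scaled by library size alone). All 7 markers of undifferentiated spermatogonia were called higher in Thy1+ too, as were 8 of the 10 genes. Other somatic markers had the opposite order, with 6 of 6 Leydig and 5 of 5 tested mast cell markers called lower in Thy1+, and of 8 Sertoli markers 0 were called in either direction. Between genotypes in Thy1+, 1 stromal marker was called higher and no endothelial, Leydig, myoid or macrophage marker was called. The stromal sums of the genotypes overlapped there. *Pbx3*, *Fst*, *Large2*, *Erbb3* and *Igfbp5* were lower in every Thy1+ CKO library, and a part of any marker sum in this was not tested. Sertoli markers stood out in a single Thy1+ control library, at 1900 CPM against 381 and 412 in the others, and in a single Thy1+ CKO library, at 2477 against 800 and 822.

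Germ cell markers went the other way. Their sum was 2599 to 3159 CPM in c-Kit+ control and 1880 to 2151 CPM in c-Kit+ CKO, with 2 of 6 called lower, and 1486 to 2277 against 1105 to 1799 CPM in Thy1+, with 1 of 6 called lower (0 when scaled by DESeq2 size factors). Markers of undifferentiated spermatogonia summed to 458 to 684 CPM in Thy1+ control and 339 to 384 CPM in Thy1+ CKO, with 3 of 7 called lower, and were at 140 to 151 and 163 to 166 CPM in c-Kit+, with 1 of 7 called higher. The 1 marker called higher was *Etv5*, which ranked among the 10 genes in the difference and was at 14.7 to 18.8 CPM in c-Kit+ control and 31.4 to 44.1 CPM in c-Kit+ CKO. The median log2 fold change of the list was -0.70 in Thy1+ and -0.03 in c-Kit+. Its sum, which includes *Etv5*, was lower in every Thy1+ CKO library and higher in every c-Kit+ CKO library than in the controls. *Fst*, *Large2* and *Igfbp5* had the same arrangement. Markers of differentiating spermatogonia summed to 1558 to 1790 CPM in c-Kit+ control and 1262 to 1452 CPM in CKO, with 2 of 6 called lower. Schwann cell markers (2 of 5 higher and 1 lower in c-Kit+ CKO) and erythroid ones (0 of 3 tested called, 1.52 to 4.76 CPM in all libraries) completed the lists, and no listed marker was at 0 in all 12 libraries. Whether any of these shifts bears on the 10 genes was not tested.

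**Figure D5:**
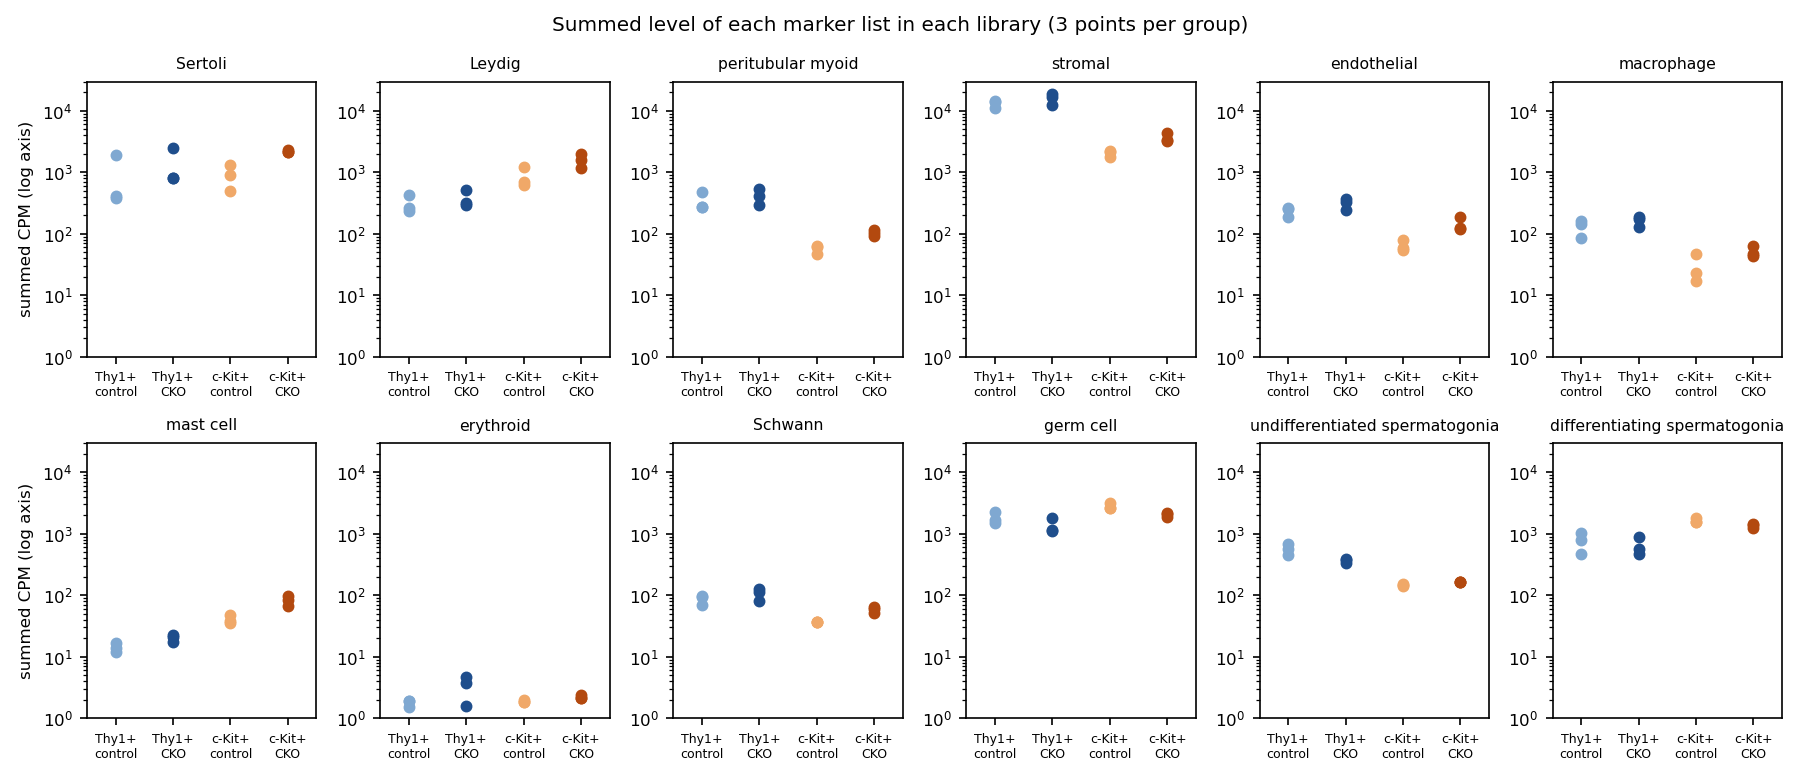
Summed CPM of each marker list in every library (3 points per group, log axis). The stromal list is at 11090 to 19085 CPM in Thy1+ libraries and at 1801 to 4333 CPM in c-Kit+ libraries, where every CKO library is above every control library.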

How the data were processed

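The 12 mRNA libraries of the series were used, and its chromatin immunoprecipitation libraries were not used here. Before deposit, the authors used Trimmomatic 0.39 for trimming, HISAT2 2.1.0 for alignment of the paired reads to mm10, and featureCounts (2.0.3 in the file header) for counting on RefSeq exons, with no option for strand or for read pairs. The file holds deposited raw counts and exon lengths. Genes that overlap on either strand can share reads, but no exon of the 10 genes overlaps another gene. Counts of the 10 genes ran from 113 to 9523 per library. Replicates of a group differed by more than counting error, by a chi-square of 10.3 to 72.4 per degree of freedom. Gene IDs were matched to symbols for 25275 genes.

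Counts were fitted with edgeR 4.0.16 (R 4.3.3, quasi-likelihood F test, TMM, filterByExpr, 1 mean per group), with Benjamini-Hochberg adjustment over 18002 genes. Calls needed an FDR under 0.05 with a log2 fold change beyond 0.5 in size, and in the difference an FDR under 0.05. The SE is the log2 fold change divided by the square root of F. Alternatives were DESeq2 1.42.0, other scalings and filters, blocks, fits of 1 population, the exact test of the study and leaving out each library. The steps were also run on simulated counts of independent libraries, with the same spread in every group. The real libraries differ in both respects, so that run does not show how the test behaves on them. The 10 genes and all lists were chosen with earlier results of these data known. Genes named besides the 10 are, per list, the one with the lowest p in the difference and the one with the highest mean RPKM, the 2 nearest in profile, the neighbours in rank, listed markers, and *Chd8*, *Thy1* and *Kit*. Other genes of the lists, and *Bc1*, are named because they were called, after their values were seen. Some genes that these rules or list counts cover are not reported here by name. Coordinates of genes are those of the count table, and promoters are from RefSeq. The study took cells from 3 male pups for each analysis but does not state which pup or pups gave a library, so p-values measure the spread between these libraries, which may be technical in part.

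The study does not state that replicate numbers pair libraries. After subtraction of group means, same-numbered libraries correlated over 0.1 in 3 of 3 pairs of Thy1+ control and CKO (0.241 to 0.448), 1 of 3 in c-Kit+ (0.0830 to 0.107), 3 of 3 between the controls (0.116 to 0.261), 1 of 3 between the CKO groups, and 10 of 18 pairs in all. All 18 of these correlations were above 0, the lowest at 0.00486, while those of differently numbered libraries reached 0.0661 at most. Unless a block is named, responses, SEs and calls are from the fit without a block. Since the Thy1+ groups met the criterion of every pair over 0.1, calls with the block are given beside theirs; each other comparison includes pairs below it.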

Additional observations from a re-analysis of the deposited data

Results flagged for a closer look

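*Fst*, *Large2* and *Igfbp5* stood out because every c-Kit+ CKO library was above the controls and every Thy1+ CKO library was below them. The difference between both responses, on the log2 scale, was 1.25 (SE 0.20) for *Fst*, 1.32 (SE 0.24) for *Large2* and 0.98 (SE 0.18) for *Igfbp5*. It was not tested for these genes, which were chosen on it, and over all genes the test called none at an adjusted p under 0.05 (edgeR), while 60 of 18002 genes (0.333%) had libraries in this arrangement or its reverse. Without any 1 library, the difference ranged from 1.14 to 1.37 for *Fst*, from 1.09 to 1.48 for *Large2* and from 0.83 to 1.13 for *Igfbp5*.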

How the results depend on the processing

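The 10 genes kept the sign of the difference between both responses under all 19 alternatives, and the c-Kit+ response kept its sign under all 20. The Thy1+ response changed sign for *Eml2* under 3 of 20 and for *Phf3* under 1 of 20. The difference called 0 genes with each other scaling and filter, 59 (42 higher, 17 lower) with DESeq2, 446 (422 and 24) with the replicate block and 54 (46 and 8) with the replicate block within genotype. Whether the numbers pair the 12 libraries is not settled here, and so neither is the choice between fits with and without a block. The cause of these shifts was not tested. With each library left out in turn it called 0 to 1 genes, the 1 being *Bc1* (-1.70, SE 0.16, FDR 0.0061, edgeR), without c-Kit+ control replicate 3 and with an FDR of 0.386 in all libraries.

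The Thy1+ response called 250 genes, 698 with DESeq2, 951 with the replicate block, 0 with the quasi-likelihood test on only the 6 Thy1+ libraries and 294 (20 higher, 274 lower) with the exact test on the same 6, and 13 to 1120 when 1 library was left out (13 without Thy1+ CKO replicate 3, 33 without Thy1+ control replicate 2, 35 without Thy1+ CKO replicate 1, 448 without Thy1+ control replicate 1, 1120 without Thy1+ CKO replicate 2, and 115 to 158 without any c-Kit+ CKO library or c-Kit+ control replicate 3). The c-Kit+ response called 3277 genes and 1903 to 3574 with 1 library left out, the fewest without c-Kit+ control replicate 2 (1903), c-Kit+ CKO replicate 1 (2117) and c-Kit+ CKO replicate 3 (2130). The population average called 5237 genes, 9781 without the minimum on the fold change and 4824 to 5851 with 1 library left out. The genotype average called 2835, 5755 without that minimum and 1991 to 3546 with 1 library left out. With the block these were 4050, 5439 and 3287, within 1.5 times, and no call of the 10 genes in the population average changed with it.

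Scaled by DESeq2 size factors or by library size alone, the activin, IGF and dystroglycan lists each had 1 fewer gene called higher in c-Kit+ CKO (4, 8 and 4), and with DESeq2 size factors the 1 germ cell marker called lower in Thy1+ CKO was lost. With 3 libraries a group, the SE of a response was 0.09 to 0.20 for the 10 genes, and counting both reads of a pair makes the counting error larger than the counts imply.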
